A study of Mus musculus with 7 samples.

Results

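Differentially methylated regions (DMRs) of airway macrophages (AMs) that lay between genes, yet within reach of one, were examined here: 403 of the 1926 DMRs in the list that the authors called between Scnn1b-Tg and wild-type (WT) mice. They were taken from that list by position alone, as every DMR annotated as distal intergenic whose distance to the assigned transcription start site (TSS) was below 50 kb, and their methylation levels played no role in the choice. The AMs were CD45+ Siglec-F+ CD11c+ cells sorted from the lungs of female mice of 6 weeks on a C57BL/6 background, and CpG methylation across their genome was read by bisulfite sequencing of tagmented DNA (tWGBS) in 3 Scnn1b-Tg and 4 WT samples. Scnn1b-Tg mice carry a transgene for the beta subunit of the epithelial sodium channel under the club cell secretory protein (CCSP) promoter, which is active in airway epithelium, and they develop mucus obstruction of the airways. WT mice were littermates without the transgene. Whether a sample came from 1 mouse or from several is not stated in the labels.

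Each DMR had 1 mean methylation level per genotype, a fraction between 0 (no methylated reads) and 1, given as the authors' mean for the region in that genotype. Values per sample and sequencing depth were not in the list, so the levels below are the authors' means with no SD, and the spread between samples and the depth behind them are unknown. The level columns carry no genotype name. The lower level at most DMRs was taken as Scnn1b-Tg from the study's description, and every direction below rests on that reading. Because the list holds only regions that differ, the identity of the sorted cells could not be checked from it.

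In mammalian DNA most CpGs are methylated, and low methylation between genes is typical of enhancers, which lose the mark where transcription factors bind and which can act on a start site many kilobases away. Much of the remaining intergenic DNA is made of copies of transposable elements, which are usually kept methylated. AMs are long-lived phagocytes of the airspaces whose program is set by lung signals and by transcription factors such as PU.1, C/EBP and PPARG.

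The sequences of 11 DMRs show what these regions look like, and they were chosen from the members with the largest area statistics or differences or from listed genes. They are given as the plus strand of GRCm38 (mm10, RefSeq), 5' to 3', from the first CpG to the last, with every CpG in capitals. Of the hypomethylated DMRs, those of Olfr342 (chr2:36513242-36513512), Btbd35f15 (chrX:33565479-33565751) and Cxcl15 (chr5:90822245-90822501) were repeat-masked over nearly their whole length, whereas those of Setd7 (chr3:51603854-51604149), Klf2 (chr8:72305197-72305253) and Maf (chr8:115732335-115732414) held no masked base and that of Tlr13 (chrX:106139547-106139679) few.
Olfr342: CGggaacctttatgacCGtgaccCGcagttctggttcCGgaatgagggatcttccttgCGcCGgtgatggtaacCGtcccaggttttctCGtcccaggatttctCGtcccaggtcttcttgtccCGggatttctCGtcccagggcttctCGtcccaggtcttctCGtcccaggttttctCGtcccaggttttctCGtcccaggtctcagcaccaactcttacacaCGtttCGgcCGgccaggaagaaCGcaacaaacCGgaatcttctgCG
Btbd35f15: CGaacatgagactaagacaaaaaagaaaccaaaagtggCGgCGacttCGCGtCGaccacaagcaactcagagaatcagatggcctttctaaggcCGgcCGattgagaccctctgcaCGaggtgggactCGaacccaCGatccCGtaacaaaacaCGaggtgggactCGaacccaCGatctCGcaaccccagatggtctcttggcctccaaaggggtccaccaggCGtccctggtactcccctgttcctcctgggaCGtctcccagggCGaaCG
Cxcl15: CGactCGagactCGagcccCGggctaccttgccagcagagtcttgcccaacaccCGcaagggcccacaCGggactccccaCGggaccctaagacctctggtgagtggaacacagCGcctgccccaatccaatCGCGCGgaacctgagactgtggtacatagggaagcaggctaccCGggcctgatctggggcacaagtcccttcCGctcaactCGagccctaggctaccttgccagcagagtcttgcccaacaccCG
Setd7: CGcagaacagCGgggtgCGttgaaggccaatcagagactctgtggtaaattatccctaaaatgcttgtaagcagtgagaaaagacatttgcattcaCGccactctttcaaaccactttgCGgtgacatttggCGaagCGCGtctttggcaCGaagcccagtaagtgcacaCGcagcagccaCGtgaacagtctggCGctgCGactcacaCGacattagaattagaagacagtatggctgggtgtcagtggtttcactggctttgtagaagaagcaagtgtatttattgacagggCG
Klf2: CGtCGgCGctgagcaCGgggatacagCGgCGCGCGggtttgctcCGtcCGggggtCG
Maf: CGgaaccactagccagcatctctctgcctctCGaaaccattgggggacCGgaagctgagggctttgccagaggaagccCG
Tlr13: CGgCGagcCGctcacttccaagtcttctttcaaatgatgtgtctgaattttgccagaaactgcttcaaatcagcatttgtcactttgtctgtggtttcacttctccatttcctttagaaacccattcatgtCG

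The hypermethylated DMRs shown are those of Rsg1 (chr4:141210030-141210136), which was fully masked, Degs1 (chr1:182258574-182258639) and Fignl2 (chr15:101077114-101077392), which held no masked base, and Mir6379 (chr3:46866562-46866690), which ends in a stretch of short repeat units.
Rsg1: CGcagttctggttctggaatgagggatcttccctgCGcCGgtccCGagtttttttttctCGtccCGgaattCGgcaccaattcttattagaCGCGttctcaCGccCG
Degs1: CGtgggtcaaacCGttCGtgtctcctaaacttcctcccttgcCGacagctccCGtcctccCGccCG
Fignl2: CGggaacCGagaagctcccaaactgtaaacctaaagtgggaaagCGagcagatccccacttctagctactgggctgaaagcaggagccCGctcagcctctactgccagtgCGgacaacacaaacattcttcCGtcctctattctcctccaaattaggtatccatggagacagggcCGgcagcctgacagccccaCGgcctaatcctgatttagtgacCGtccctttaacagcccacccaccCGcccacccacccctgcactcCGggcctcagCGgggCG
Mir6379: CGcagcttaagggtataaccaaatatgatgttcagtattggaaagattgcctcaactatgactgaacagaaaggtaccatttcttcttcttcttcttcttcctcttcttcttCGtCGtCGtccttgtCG

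Loss of methylation was the main direction in these DMRs. Of the 403 members, 295 (73.2%, exact 95% interval 68.6 to 77.5) were lower in Scnn1b-Tg AMs, against 72.9% of all DMRs, and 108 were higher, against 27.1% of all DMRs, so the split was close to that of the list as a whole. Hypomethylated members had a median level of 0.835 in WT and 0.582 in Scnn1b-Tg AMs, with a median difference of -0.238 (quartiles -0.268 and -0.206). Hypermethylated members had a median of 0.452 in WT and 0.689 in Scnn1b-Tg AMs, with a median difference of 0.217 (quartiles 0.194 and 0.253). Over all DMRs the medians of the difference were -0.238 and 0.216. Members were short, with a median of 5 CpGs (4 to 29) and a median length of 179 bp (52 to 4094).

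**Figure D1:**
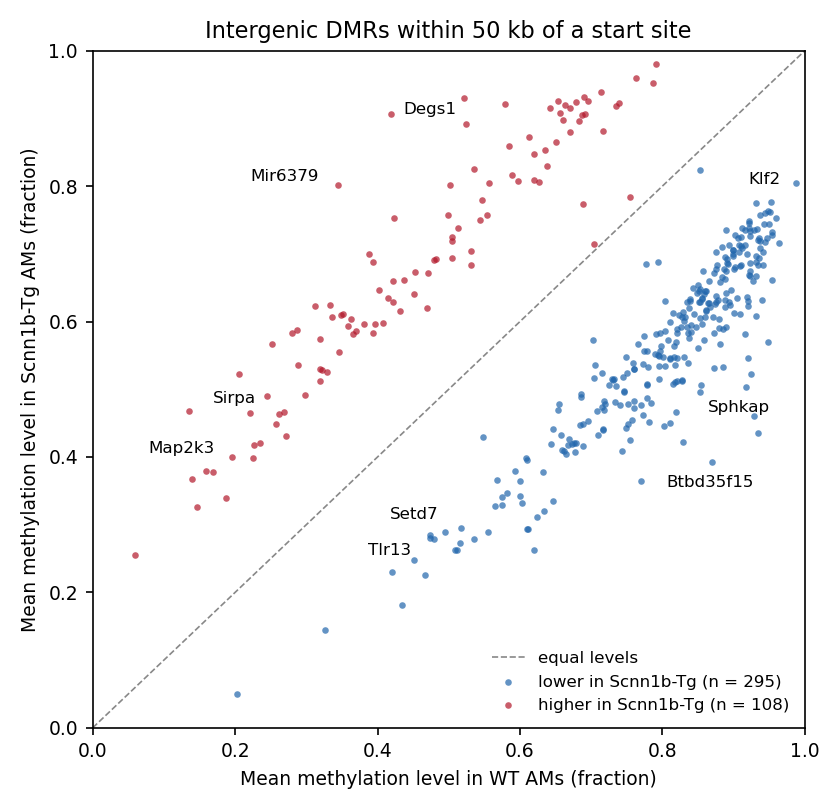
Mean methylation level (fraction) of each of the 403 DMRs in WT (x axis) and Scnn1b-Tg AMs (y axis), with 295 DMRs lower and 108 higher in Scnn1b-Tg. The dashed line marks equal levels, and most points lie in a band on each side of it, as the medians of the difference of -0.238 and 0.217 show.

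Direction varied with the level in WT AMs, which itself enters the difference. Levels are bounded by 0 and 1 and regions were selected on a minimum difference. A DMR near 1 in WT AMs thus had little room to rise and one near 0 little room to fall. The direction in the lowest and highest bins below was therefore largely set in advance. All 180 members with a WT level of 0.8 or more were hypomethylated, as were 91 of 121 with a WT level from 0.6 to 0.8 and 22 of 56 from 0.4 to 0.6. Of the 38 members with a WT level from 0.2 to 0.4, only the DMRs of Mir6395 (0.144 in Scnn1b-Tg and 0.326 in WT AMs) and Tm4sf5 (0.0492 and 0.203), a tetraspanin-like membrane protein gene, were lower in Scnn1b-Tg AMs. All 8 members under 0.2 in WT AMs were hypermethylated, and the lowest WT level of any member was 0.0595, at a DMR 23.8 kb downstream of the TSS of Cox4i1, a subunit of mitochondrial cytochrome c oxidase, which stood at 0.255 in Scnn1b-Tg AMs. The other DMRs of the list split in a like way, with 652 of 652 hypomethylated at a WT level of 0.8 or more and 339 of 439 from 0.6 to 0.8.

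The members were compared with the other positional classes to ask whether direction changed with distance from genes. Hypomethylation was more frequent in the members than in promoter DMRs, of which 106 of 211 (50.2%) were lower in Scnn1b-Tg AMs, a difference of 23.0 percentage points (odds ratio 2.71, two-sided Fisher exact test, adjusted p = 1.73e-07). It was less frequent than in intergenic DMRs 200 kb or farther from a TSS, of which 302 of 367 (82.3%) were lower, a difference of -9.09 points (odds ratio 0.588, same exact test, adjusted p = 0.0113). The differences from intronic DMRs (389 of 513, -2.63 points, adjusted p = 0.467) and from intergenic DMRs at 50 to 200 kb (265 of 342, -4.28 points, adjusted p = 0.38) did not pass the threshold of 0.05 in the exact test. Among regions with a WT level from 0.4 to 0.8, the exact test gave a difference from promoter DMRs of 0.735 points (adjusted p = 0.898) and one from the farthest DMRs of 4.53 points in the other direction (adjusted p = 0.775), so both calls ended when the WT level was held in that range. Among regions with at least 10 CpGs, the exact test passed neither against promoter DMRs (16.8 points, adjusted p = 0.224) nor against the farthest DMRs (-15.7 points, adjusted p = 0.375), and with a difference of at least 0.2 the latter was -7.73 points (adjusted p = 0.0602). The units of these tests are regions of 1 list, and the p-values, adjusted over 7 tests, do not measure variation between samples. The tests and intervals also treat regions as independent. As described below, 41.7% of members shared a stretch of sequence with another member, and 41.0% of all DMRs with another DMR, so the p-values may be too small.

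**Figure D2:**
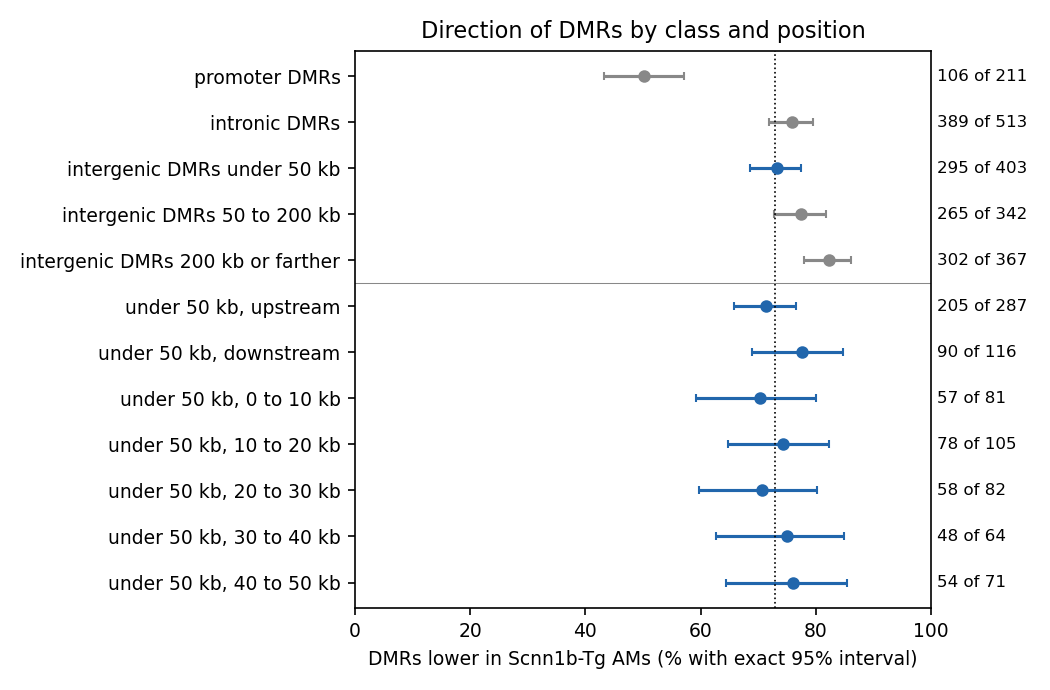
Share of DMRs lower in Scnn1b-Tg AMs (x axis, % with exact 95% interval) for 5 positional classes and, below the line, for the 403 DMRs under 50 kb by side and distance, with counts on the right. The dotted line marks the 72.9% of all DMRs, promoter DMRs lie at 50.2%, and the 5 distance bins lie between 70.4% and 76.1%.

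Within 50 kb, no change of direction with position was resolved. Of the members, 287 lay upstream of the assigned TSS and 116 downstream, at a median distance of 22.6 kb (3.001 to 49.931 kb). Hypomethylation was found in 71.4% of upstream and 77.6% of downstream members, a difference of -6.16 points (Fisher exact test, adjusted p = 0.38). It was found in 163 of 227 members under 25 kb and 132 of 176 at 25 kb or more, a difference of -3.19 points (Fisher exact test, adjusted p = 0.498). Members assigned to protein-coding genes were lower in 249 of 336 cases and those assigned to other genes, mostly the 47 long non-coding RNA genes, in 44 of 65, a difference of 6.41 points (Fisher exact test, adjusted p = 0.404). These 3 differences were not resolved with this number of regions. The WT level of hypomethylated members had a median of 0.766 within 10 kb of the TSS and from 0.839 to 0.853 in the 4 bins farther out. Hypermethylated members had a WT median of 0.411 under 25 kb and 0.555 at 25 kb or more.

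**Figure D3:**
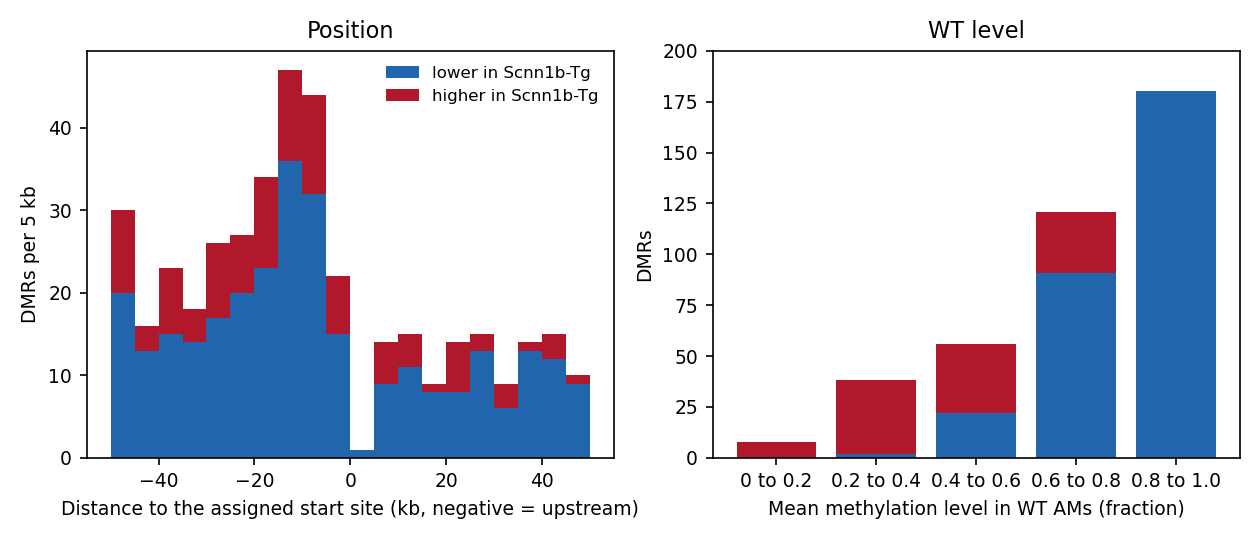
Left, number of DMRs per 5 kb (y axis) by signed distance to the assigned TSS in kb (x axis). Right, number of DMRs (y axis) by mean level in WT AMs (x axis), in both panels stacked as lower or higher in Scnn1b-Tg AMs. Upstream DMRs number 287 and downstream DMRs 116, and all 180 DMRs with a WT level of 0.8 or more were lower in Scnn1b-Tg AMs. Levels end at 1, which leaves such DMRs little room to rise.

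The DMRs nearest to a start site lay just beyond the promoter class, which ends at 3 kb. The nearest hypomethylated members were 3.397 kb upstream of Dtnbp1, a subunit of the lysosome-related organelle complex BLOC (0.399 in Scnn1b-Tg and 0.608 in WT AMs), 3.429 kb upstream of Runx1t1, a transcriptional corepressor (0.263 and 0.620), and 3.45 kb upstream of Mfap3l (0.607 and 0.831). The nearest hypermethylated members lay at Azin2, an inhibitor of antizyme (0.923 and 0.739), Cebpzos (0.641 and 0.451) and Dpep2, a membrane dipeptidase that acts on leukotrienes (0.587 and 0.286). At the other limit, the last members inside 50 kb were those of 4930441H08Rik (0.539 and 0.759), Pet2 (0.506 and 0.778) and Ldoc1l (0.634 and 0.838). The first DMRs outside it were those of Ythdf3 (0.639 and 0.955), Glra2 (0.699 and 0.875) and Bard1 (0.622 and 0.861), all lower in Scnn1b-Tg AMs as well.

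The hypomethylated members with the largest area statistics, a score that grows with the number of CpGs, were mostly highly methylated in WT AMs. The DMR 44.1 kb upstream of A830018L16Rik, with 20 CpGs, stood at 0.684 in Scnn1b-Tg and 0.935 in WT AMs, and that 13.9 kb upstream of the olfactory receptor gene Olfr342, with 21 CpGs, at 0.646 and 0.897. Sertm1 (0.735 and 0.916), Gm15328 (0.774 and 0.932), Fcrla, an Fc receptor-like protein of B cells (0.738 and 0.921), and Clec14a, an endothelial C-type lectin (0.711 and 0.884), followed the same pattern. Lower levels were seen at Elf3, an epithelial ETS transcription factor (0.631 and 0.804), and at Rock1, a kinase of the cytoskeleton (0.479 and 0.784). The DMR of Setd7, a lysine methyltransferase, was at 0.296 in Scnn1b-Tg against 0.517 in WT AMs over 15 CpGs and was the least methylated, in both genotypes, of the 10 that Btbd35f15, described below, completes.

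The hypermethylated members with the largest area statistics started from lower levels and lay near genes of several functions. The DMR 9.13 kb upstream of Scpep1os held 29 CpGs, the most of any member, and stood at 0.567 in Scnn1b-Tg and 0.252 in WT AMs. Sirpa encodes the inhibitory receptor on myeloid cells that binds CD47 and restrains phagocytosis, and its DMR of 20 CpGs, 17.7 kb upstream, stood at 0.467 and 0.268. Map2k3, a kinase that activates stress-responsive MAP kinases, had a DMR at 0.4001 and 0.195. Trib1, a pseudokinase that promotes the breakdown of C/EBP factors, had a DMR of 15 CpGs 14.4 kb upstream at 0.463 and 0.262. Bsn, a scaffold of presynaptic terminals (0.525 and 0.329), Fignl2 (0.449 and 0.258), A830009L08Rik (0.583 and 0.393), 1700064M15Rik (0.620 and 0.470), the cytochrome P450 gene Cyp2s1 (0.896 and 0.682) and the small GTPase gene Rsg1 (0.753 and 0.424) completed the 10.

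Differences of 0.3 or more were reached by 52 members, 39 of them hypomethylated, a split to be read against the 72.9% hypomethylated among all DMRs. How many of all DMRs reached 0.3 was not counted, so this number is not a trait of the members. Among members with at least 5 CpGs, the largest losses were at Btbd35f15 (0.393 in Scnn1b-Tg and 0.870 in WT AMs), a member of an X-linked multigene family, Sphkap, an anchoring protein for protein kinase A (0.503 and 0.917), Mettl11b (0.422 and 0.830), the lysosomal membrane protein gene Laptm4b (0.450 and 0.811) and Wdr44 (0.496 and 0.853). The largest gains were at Degs1, the desaturase that makes ceramide (0.906 and 0.419), Mir6379 (0.801 and 0.345), Nkain2 (0.930 and 0.521), Xlr5c (0.892 and 0.525) and Rsg1. Among members of 4 CpGs, chosen after their values were seen, the DMR of Gm12633 was at 0.435 in Scnn1b-Tg against 0.934 in WT AMs, and that of Ripk3, the kinase of necroptosis, at 0.460 against 0.928. At the other end, 5 members differed by less than 0.1, among them the DMRs of Limk1 (0.824 and 0.853) and Hs3st2 (0.784 and 0.755).

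Members were also looked up at genes of macrophage activation and identity. Of 794 genes in 19 lists of macrophage, lung and chromatin genes, 15 had a member, and 14 of the 15 DMRs were hypomethylated, with a median difference of -0.222 over the 15 against -0.216 over all members. Counting every class, 83 of the 794 genes had a DMR, and 63 of their 94 DMRs were hypomethylated, against 1404 of all 1926. A member was held by 15 of these 83 genes, against 395 of all 1625 genes with a DMR. Members fell on 3 of 73 genes of chromatin and methylation enzymes, 2 of 27 M2 genes, 2 of 75 chemokines and cytokines, 2 of 60 genes of Toll-like receptor and NF-kB signaling, 2 of 70 macrophage transcription factors, 2 of 58 genes of phagocytosis and scavenging, 2 of 24 genes of monocytes and interstitial macrophages and 1 of 35 genes of AM identity, and a gene can be on several lists. The values of 14 of the 15 follow. The exception to the direction was Sirpa, described above.

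Innate sensing and inflammatory signals were represented by a few hypomethylated DMRs. Across all positional classes, 8 of 9 DMRs of the Toll-like receptor and NF-kB list were hypomethylated, but only 3 of 6 of the chemokine and cytokine list. Ly96 encodes the protein that presents lipopolysaccharide to Toll-like receptor signaling, and its DMR 25.2 kb downstream of the TSS stood at 0.713 in Scnn1b-Tg and 0.908 in WT AMs. Tlr13, a sensor of bacterial ribosomal RNA, had a DMR 3.597 kb upstream at 0.280 and 0.474, the lowest WT level among the hypomethylated DMRs of listed genes. Cxcl15, a neutrophil chemokine of the mouse lung, stood at 0.629 and 0.875, and the T cell cytokine gene Il21 at 0.728 and 0.954. The DMRs of Ly96, Cxcl15 and Il21 were repeat-masked over 100% of their bases, and that of Tlr13 over 15.9%.

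Transcription and chromatin factors made up a second group. With the other positional classes included, 4 of 7 DMRs of the list of macrophage transcription factors and 8 of 9 of the chromatin list were hypomethylated. The DMR 13.8 kb upstream of Klf2, a factor that restrains inflammatory activation of myeloid cells, held 11 CpGs within 56 bp and stood at 0.761 in Scnn1b-Tg and 0.945 in WT AMs. Maf, a macrophage transcription factor, had a DMR 25.4 kb upstream at 0.583 and 0.835, and Myc, a factor of growth and proliferation, one 12.0 kb upstream at 0.776 and 0.952. The chromatin remodelers Chd7 (0.420 and 0.675) and Chd2 (0.564 and 0.798) and the methyltransferase gene Setd7 were the members of the list of chromatin enzymes, 43.8, 37.4 and 43.0 kb upstream of their start sites. Repeat-masked bases made up 97.7% of the DMR of Myc, 58.0% of that of Chd7 and 50.6% of that of Chd2. The DMRs of Klf2, Maf and Setd7 held no masked base.

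Markers of macrophage subsets formed the third group. In all positional classes together, 3 of 5 DMRs of the list of monocytes and interstitial macrophages and 3 of 4 of the AM identity list were hypomethylated. The M2 list had 5 of 5, and the list of phagocytosis and scavenging 4 of 6. Cd163, the scavenger receptor for haemoglobin, is on 3 of the lists and had a DMR 15.9 kb upstream at 0.508 in Scnn1b-Tg and 0.778 in WT AMs. Ly6c2, a surface protein of classical monocytes, had one at 0.680 and 0.902, and F7, coagulation factor VII, which resident AMs express, one at 0.426 and 0.668. The DMRs of Cd163 and Ly6c2 were repeat-masked over 100% of their bases, whereas that of F7 held no masked base. No member was assigned to a gene of the lists of M1 genes, MHC class II presentation, cytokine receptors, IRF, STAT and JAK genes, lysosome and matrix genes, interferon-stimulated genes, other leukocytes, epithelium and stroma, imprinted genes or transgene loci, although genes of all these lists but the interferon-stimulated genes had DMRs of other classes.

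**Figure D4:**
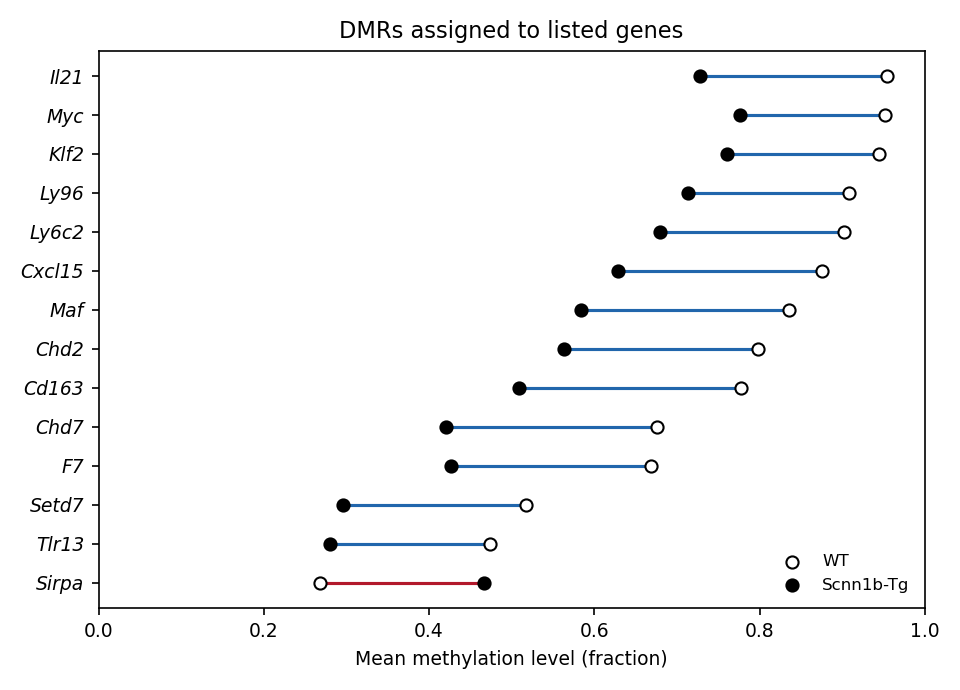
Mean methylation level (fraction, x axis) in WT (open circles) and Scnn1b-Tg AMs (filled circles) at 14 DMRs assigned to genes of the lists, ordered by WT level. Sirpa alone was higher in Scnn1b-Tg AMs (0.467 against 0.268), and WT levels of the other 13 ran from 0.474 at Tlr13 to 0.954 at Il21.

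Gene families near the members were described by their counts, to be read against the 72.9% hypomethylated among all DMRs. Olfactory and vomeronasal receptor genes, which lie in dense arrays, accounted for 25 members, of which 23 were hypomethylated, with median levels in Scnn1b-Tg and WT AMs of 0.611 and 0.841. Over all classes, 37 of 44 DMRs of these receptor genes were hypomethylated. Examples were Olfr342, Vmn1r227 (0.744 and 0.9503), Vmn1r40 (0.744 and 0.943) and Vmn2r20 (0.632 and 0.940), and the 2 hypermethylated DMRs were those of Vmn1r189 (0.848 and 0.620) and Vmn1r125 (0.826 and 0.535). Zinc finger genes had 9 members, 8 of them hypomethylated (29 of 39 over all classes), among them Zfp629 (0.762 and 0.951) and Zfp781 (0.532 and 0.885). Of these 9, 7 were mostly masked. Predicted or uncharacterised genes had 79 members (59 hypomethylated, and 297 of 379 over all classes). MicroRNA genes had 7 (5 hypomethylated, and 47 of 63 over all classes), solute carriers 5 (4, and 29 of 36), ion channel subunits 5 (4, and 24 of 29) and G protein coupled receptors 5 (3, and 9 of 16).

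Genes named for C-type lectin, immunoglobulin-like or Ly6 receptors, most of them expressed by leukocytes, had 8 members, 7 of them hypomethylated (11 of 15 over all classes). Of these 8, 7 were mostly masked. Besides Fcrla and the endothelial Clec14a, the DMR of Klrg1, an inhibitory receptor of lymphocytes, stood at 0.735 in Scnn1b-Tg and 0.889 in WT AMs, whereas that of Clec2l was higher in Scnn1b-Tg AMs (0.523 and 0.206). Trem1, a receptor that amplifies inflammatory responses of myeloid cells, was singled out after its values were seen and had a DMR 4.4 kb upstream at 0.466 and 0.819. Adhesion and junction genes had 8 members (7 hypomethylated, and 63 of 71 over all classes), protein kinase genes 4 (2, and 9 of 16), homeobox and related factors 3 (2, and 18 of 24), and proteases 1, which was hypomethylated. Of the 8 adhesion and junction members, 2 were mostly masked. No member was assigned to a ligand or receptor of the WNT, FGF, BMP, TGF-beta and hedgehog families in the list of those genes.

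Members of both directions differed in repeat content. Repeats and low-complexity DNA are soft-masked in the reference, and more than 50% of the bases were masked in 181 of the 295 hypomethylated members (61.4%) but in 29 of the 108 hypermethylated ones (26.9%), the latter equal to the 26.9% in windows of the same lengths 5 kb to either side. In the windows around hypomethylated members the share was 37.6%. Put the other way, 181 of the 210 members that were mostly masked were hypomethylated (86.2%, exact 95% interval 80.8 to 90.6), against 114 of the other 193 (59.1%, 51.8 to 66.1). Over all WT levels, the DMRs outside the members split the same way, with 545 of 676 mostly masked (80.6%) and 564 of 847 others (66.6%) hypomethylated. This split was therefore not particular to the members. The WT level moved with the repeat content: mostly masked members had a WT median of 0.854 and the others one of 0.647. Among members with a WT level from 0.6 to 0.8, 39 of 53 mostly masked members (73.6%) and 52 of 68 others (76.5%) were hypomethylated, so the gap was not seen there. Outside the members, at the same WT level, 108 of 173 mostly masked DMRs (62.4%) and 231 of 266 less masked DMRs (86.8%) were hypomethylated. That is the reverse of their split over all levels. These shares are descriptions and were not tested.

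**Figure D5:**
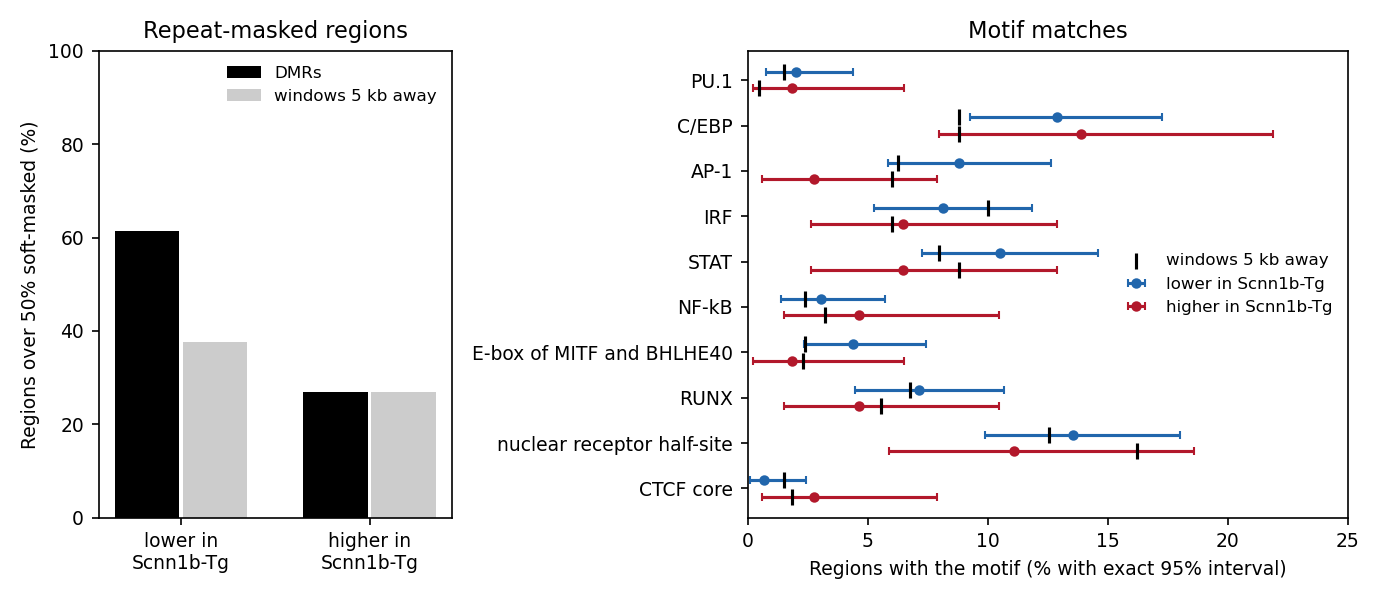
Left, share of regions with over 50% soft-masked bases (%, y axis) in DMRs (black) and in windows of the same length 5 kb to either side (grey), by direction. Right, share of regions with a match to each motif (%, x axis, with exact 95% interval) in DMRs lower (blue) or higher (red) in Scnn1b-Tg AMs, with black ticks for the windows. Masked DMRs make up 61.4% of the lower and 26.9% of the higher group, and C/EBP matches lie in 12.9% and 13.9% of them, against 8.8% of the windows.

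Many members held copies of one another's sequence. A stretch of at least 20 bases, on either strand, was shared with another member by 168 of the 403 (41.7%), and these fell into 20 clusters linked by such stretches. The share was 50.5% of hypomethylated members (149 of 295) and 17.6% of hypermethylated members (19 of 108), whereas among the windows 5 kb to either side it was 17.4% and 15.4% of all 403. Split by direction, the windows gave 19.3% and 16.6% around hypomethylated members and 12.0% on each side around hypermethylated members. Over all 1926 DMRs, 41.0% shared a stretch with another DMR, and of the members 46.7% did. The cluster of 38 members held the DMRs of Olfr342, A830018L16Rik, Sertm1, Ly96, Il21, Sphkap and Laptm4b, 32 of them hypomethylated, with median levels of 0.697 (Scnn1b-Tg) and 0.909 (WT). The longest stretch shared by Olfr342 and Sertm1, which lie on different chromosomes, spanned 48 bases with 4 CpGs (chr2:36513242-36513289 at Olfr342, with the match at Sertm1 on the minus strand) and is shown because it carries the link between both DMRs.
shared stretch: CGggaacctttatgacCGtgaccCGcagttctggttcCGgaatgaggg

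Copies in a cluster did not all differ in the same direction. In the cluster of 38, the DMRs of Rsg1 (0.753 in Scnn1b-Tg and 0.424 in WT AMs), Nkain2 (0.930 and 0.521), Gbe1 (0.872 and 0.612), Rapgef4 (0.908 and 0.656), Gm10696 (0.898 and 0.661) and Itch (0.919 and 0.735) were hypermethylated. All 6 had a lower WT level than the cluster median of 0.909, which holds for every hypermethylated member, as none reached 0.8. In 8 of the 20 clusters both directions occurred. A cluster of 12, with the DMRs of Cfhr2 (0.523 and 0.924), Musk (0.446 and 0.802) and Dhrs3 (0.630 and 0.921), was hypomethylated throughout, as was a cluster of 6 with Cxcl15 and Rock1. How uniquely reads from such copies could be placed is not known from the list, and its part in these levels was not tested. The clusters were defined after the data had been seen.

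Base composition differed less between directions than repeat content did. The GC share had a median of 49.0% in hypomethylated and 51.03% in hypermethylated members, against 42.4% and 45.0% in their windows, and the number of CpGs per 100 bp had a median of 2.70 and 2.86, against 0.614 and 0.884. A DMR needs several CpGs to be called, so a higher CpG density than in the windows is built into the list.

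Consensus motifs of macrophage transcription factors were searched on both strands and their shares are given beside those of the windows 5 kb away. PU.1 (GAGGAAGT), the lineage factor of macrophages, matched in 2.0% of hypomethylated and 1.9% of hypermethylated members, with 1.5% and 0.5% in the windows. C/EBP (TTGCNNAA) matched in 12.9% and 13.9%, with 8.8% in the windows of either direction, and over all members in 13.2% (exact 95% interval 10.0 to 16.8). The other DMRs matched it in 11.6% and their windows in 12.4%. AP-1 (TGANTCA), the dimer of FOS and JUN proteins, matched in 8.8% (exact 95% interval 5.8 to 12.6) of hypomethylated and 2.8% (0.6 to 7.9) of hypermethylated members, with 6.3% and 6.0% in the windows, and these intervals overlap. The hypermethylated share rests on 3 members. Outside the members AP-1 matched in 6.8% of hypomethylated and 7.5% of hypermethylated DMRs, so the gap was not seen there. IRF (GAAANNGAA) matched in 8.1% and 6.5% (windows 10.0% and 6.0%), and STAT (TTCNNNGAA) in 10.5% and 6.5% (windows 8.0% and 8.8%). NF-kB (GGANNTTCC) matched in 3.1% and 4.6% (windows 2.4% and 3.2%), and RUNX (TGTGGTT) in 7.1% and 4.6% (windows 6.8% and 5.6%). The nuclear receptor half-site (AGGTCA) matched in 13.6% and 11.1% (windows 12.5% and 16.2%), and a core of the CTCF motif (AGGGGGC) in 0.7% and 2.8% (windows 1.5% and 1.9%). None of these shares was tested.

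The E-box of MITF and BHLHE40 (CACGTG) holds a CpG itself and matched in 13 of 295 hypomethylated (4.4%) and 2 of 108 hypermethylated members (1.9%), with 2.4% and 2.3% in the windows. One of the 13 was the DMR of Setd7, in whose sequence above the E-box is cut by the capitals of its CpG. In the sequences shown, a C/EBP match lay in the DMR of Cxcl15, a RUNX match in that of Tlr13, a PU.1 match in that of Degs1 and an NF-kB match in those of Olfr342 and Rsg1. Such matches describe letters and not binding.

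Some genes had more than 1 DMR near them. The 403 members were assigned to 395 genes, and Zscan4d, a gene of the early embryo and of telomere maintenance in mouse embryonic stem cells, had 3 members, all hypomethylated (0.443 and 0.749, 0.290 and 0.555, 0.514 and 0.731). The last of these spanned 4094 bp with 4 CpGs in the list, and of the 8 members of 1000 bp or more, all hypomethylated, 7 were mostly masked. Both members of BC048403 and of 9430014N10Rik were lower in Scnn1b-Tg AMs, and both members of Vrk1, Gm14005 and Gm26705 were higher. The members of Scpep1os, about 1 kb apart, went in opposite directions, with 0.573 in Scnn1b-Tg and 0.702 in WT AMs at the DMR of 6 CpGs and 0.567 and 0.252 at that of 29 CpGs.

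At a larger scale, 37 genes had a member and at least 1 DMR outside the members, intergenic ones farther away included, and in 23 of them all DMRs of the gene had the same direction. The examples that follow were picked after their values were seen. At Sirpa, the upstream DMR was hypermethylated, whereas an intronic DMR 21.4 kb downstream of the TSS was lower in Scnn1b-Tg AMs (0.531 and 0.752). Ier5, an immediate early gene, had a member at 0.607 in Scnn1b-Tg and 0.336 in WT AMs and an intronic DMR at 0.220 and 0.433. Pik3r1, the regulatory subunit of phosphoinositide 3-kinase, had a member at 0.332 and 0.602 and a DMR 147 kb downstream at 0.712 and 0.426. At Pde4d, a phosphodiesterase that degrades cyclic AMP, the member (0.7003 and 0.919) and an intronic DMR (0.706 and 0.936) had the same direction, and at Eps8l1 so did the member (0.805 and 0.987) and a promoter DMR (0.405 and 0.704). Without regard to genes, 12 members lay within 10 kb of another DMR, 10 of them in the same direction, and 65 lay within 100 kb, 48 of them in the same direction. With 72.9% of all DMRs hypomethylated, many unrelated DMRs share a direction too. Whether these counts by gene or by distance exceed that was not tested.

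The assignment of a member to a gene is by distance and depends on the annotation. In the RefSeq annotation of GRCm38, the nearest TSS belonged to the assigned gene for 196 members and to another gene, often a predicted non-coding one, for 207, and the median distance to any RefSeq TSS was 11.9 kb. A RefSeq gene overlapped 69 members, a coding one in 22 cases, and 57 members lay within 3 kb of a RefSeq TSS. The DMRs of Klf2, Ly6c2, F7, Elf3 and Degs1 each overlapped a predicted RefSeq gene. So did those of Cyp2s1, Xlr5c, Mfap3l, 1700064M15Rik, Gm14005 and Gm26705. The DMRs of Fignl2 and Dpep2 overlapped the RefSeq gene of the same name, and that of Fignl2 lay 1193 bp from a TSS of it. For 305 members there was neither an overlap nor a RefSeq TSS within 3 kb, and of these 235 (77.0%) were hypomethylated, against 60 of the other 98. By chromosome, the X held 33 members, of which 29 were hypomethylated, a share like those of chromosomes 1 (32 of 37), 14 (7 of 8) and 18 (8 of 9). Chromosome 12 was the only one with more hypermethylated (7) than hypomethylated members (6). Shares over all DMRs of a chromosome were not counted.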

How the data were processed

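AMs of 3 Scnn1b-Tg and 4 WT samples were profiled by tWGBS from 20 ng of DNA, with 4 libraries per sample and paired reads of 125 bp. Per the submitters' processing notes and the study's methods, Trimmomatic 0.36 trimmed the reads, BWA 0.7.8 placed them on mm10, duplicates were marked with Picard, CpG methylation was called with MethylDackel and smoothed with bsmooth, and DMRs were called with DSS. Per the study's methods, regions were selected on their number of CpGs, length, difference and adjusted p-value, although the deposited means of 5 members differ by less than 0.1, a difference below the stated minimum. The tool that assigned them to genes was not found in the sources. Smoothing shares information between neighbouring CpGs, so nearby levels are not separate measurements. The deposited methylation levels are fractions that the authors averaged per genotype, and the deposited area statistic, the score of DSS for a whole region, served here to rank DMRs only. The authors' own difference column was not used, and differences were computed as Scnn1b-Tg minus WT. Depth per region is not given, so its precision is unknown, and the intervals given cover counting of regions only.

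The 403 members were taken as distal intergenic rows with an absolute TSS distance below 50 kb. Directions were compared by two-sided Fisher exact tests, adjusted over 7 tests (Benjamini-Hochberg, threshold 0.05), and shares carry exact (Clopper-Pearson) 95% intervals (Python 3.11.15, SciPy 1.17.1, pandas 2.3.3). The test code was tested on simulated data. Positions were checked against the GRCm38 reference: all 403 members started on a CpG and ended on the C of one, and the reference held as many CpGs as listed in 354 and more in 49. Printed sequences therefore extend 1 base past the listed end. Those of Btbd35f15 and Cxcl15 hold 20 and 15 CpGs, against 10 and 8 in the list. Windows for comparison had the length of the DMR and lay 5 kb to either side. Shared stretches were of 20 bases with at least 9 distinct triplets.

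Named genes were the 10 members per direction with the largest area statistics, the 5 per direction with the largest difference among those with at least 5 CpGs, members at genes of 19 lists (839 entries), genes with several members, and members nearest to a TSS or to the 50 kb limit. Some results under this rule are not reported here. Families were described by counts with up to 4 examples. The members and lists were chosen with earlier results of these data known. Alternatives were other distance limits, minimum numbers of CpGs or differences, a WT level from 0.4 to 0.8, RefSeq intergenic members, 1 region per gene, autosomes, regions whose area statistic has the sign of the difference and other stretch lengths.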

Additional observations from a re-analysis of the deposited data

How the results depend on the processing

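The direction of the members stayed within its interval under 7 of 8 alternatives and moved to 63.6% hypomethylated among the 55 members with at least 10 CpGs. In the exact tests, the difference from promoter DMRs was no longer past the threshold with at least 10 CpGs (16.8 points, adjusted p = 0.224) or a WT level from 0.4 to 0.8 (0.735 points, adjusted p = 0.898), and that from DMRs 200 kb or farther with at least 10 CpGs (-15.7 points, adjusted p = 0.375) or a difference of at least 0.2 (-7.73 points, adjusted p = 0.0602). With a WT level from 0.4 to 0.8 the sign turned for the latter (4.53 points), for DMRs at 50 to 200 kb (1.68 points) and for members under against over 25 kb (10.2 points), none past the threshold. With at least 10 CpGs, 15 of 29 members under 25 kb and 20 of 26 at 25 kb or farther were hypomethylated. That was a difference of -25.2 points (exact test, adjusted p = 0.224). Fewer regions entered each of these tests, and whether that is the cause was not tested. With at least 10 CpGs the median absolute difference was 0.206 in hypomethylated members, against 0.238, and 0.195 in hypermethylated members, against 0.217. The alternatives for the comparisons among members, and the stretch lengths, were chosen after seeing the data, and with a stretch of 30 bases 33.5% of members shared one, against 41.7% with 20.

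No paired analysis was possible because the list holds only a mean per genotype, and no value without a replicate exists for the same reason. Depth per region is unknown, most members rest on few CpGs, and the direction of every result rests on which level was read as Scnn1b-Tg.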
